A study of Rattus norvegicus with 40 samples.

Results

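The cell cycle and DNA replication genes described here are 47 listed genes, grouped by role into 5 drivers of G1 and S entry, 2 inhibitors of cyclin-dependent kinases, 12 genes of DNA replication and nucleotide supply, 16 regulators of G2 and mitosis with the spindle checkpoint, and 12 proteins of chromosomes, the spindle and cytokinesis. Of the 14217 genes named on the array, 45 of the 47 had a probe set, the array's unit of measurement, annotated to that gene alone. The probe set with the highest mean over the 40 arrays stood for each gene. Rrm2 and Tpx2 had no probe set of their own. Foxm1, the transcription factor of G2 genes, averaged 4.96 on the log2 scale and lay below the filter on dim probe sets at 5.00, while Bub1b, the dimmest member kept, averaged 5.11. The remaining 44 members are called the kept members below, and of 1760 values of theirs 1 was at the floor, set at 16 intensity units.

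A dividing cell passes from G1 through S phase, in which DNA is copied, to G2 and mitosis, and cyclins that switch on cyclin-dependent kinases set the order of these steps. D cyclins start the cycle in response to growth signals, E2F factors then turn on the replication genes, and the mitotic genes follow later under the MuvB complex, which binds short promoter elements of the CHR type. Mature neurons have left the cycle, so in the cerebral cortex transcripts of the mitotic genes are known mainly from progenitor cells, glial precursors, endothelial cells and microglia. In bulk tissue, fewer dividing cells and less RNA per cell cannot be told apart.

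Total RNA of rat cerebral cortex was hybridised to 40 Affymetrix arrays, 20 from the group given hypoxic preconditioning, in which animals breathe air low in oxygen without lasting injury, and 20 from the sham group, which was kept in normal oxygen. The samples of each group are numbered 1 to 20 and listed 5 and 5 at a time, which gives 4 runs of numbers (1 to 5, 6 to 10, 11 to 15 and 16 to 20) that each hold 5 arrays of either group. The labels do not say what a run or a shared number is, nor whether each array is a separate animal. The p-values therefore set each difference only against the scatter of these samples, and that scatter may be technical. The sources used here do not give the strain, age, oxygen level or length of exposure.

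Array medians lay between 5.53 and 5.80 in preconditioned and between 5.72 and 5.82 in sham arrays on the log2 scale, and preconditioned arrays 5 and 6 were the lowest. The GAPDH controls gave 3' to 5' ratios, which rise as RNA degrades, of 0.909 to 1.06 in preconditioned and 0.892 to 1.03 in sham arrays. The actin controls gave higher ratios, of 1.38 to 1.82 in preconditioned and 1.46 to 1.90 in sham arrays. Of 12 cortical neuron markers, 11 were kept, and their summed intensity ranged from 9356 to 12208 in preconditioned and from 9329 to 10937 in sham arrays. The number of arrays limits the precision of all values. A call below is an adjusted p under 0.05 from limma over 18625 kept probe sets, and each difference is preconditioned minus sham in log2 units, given with its standard error (SE).

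Averaged over the 4 runs, 5 of the 44 kept members fell after preconditioning and 0 rose. Of all 18625 probe sets, 1.93% were called lower and 2.07% higher in this comparison. The 5 were Ccnd1, the D cyclin of G1, Tk1, a thymidine kinase that supplies nucleotides, Cks2, a subunit of cyclin-dependent kinase complexes, Spc25 of the kinetochore, and Racgap1, which organises the cleavage furrow. The median difference of the kept members was -0.15, against -0.02 over all probe sets, and 39 of 44 members lay below 0, against 10654 of 18625 probe sets. By role, the median was -0.12 for G1 and S entry drivers, 0.11 for the CDK inhibitors, -0.10 for replication genes, -0.18 for G2 and M regulators and -0.18 for chromosome and spindle proteins. After median centring of the arrays, Spc25 alone of the 5 was still called lower and Cdkn1a was called higher, and the split of all called probe sets moved to 117 lower and 685 higher, against 359 and 385. The 3 members above 0 outside the CDK inhibitors were Ccnd2, Ccnf and Plk1, at 0.02, 0.02 and 0.01.

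**Figure D1:**
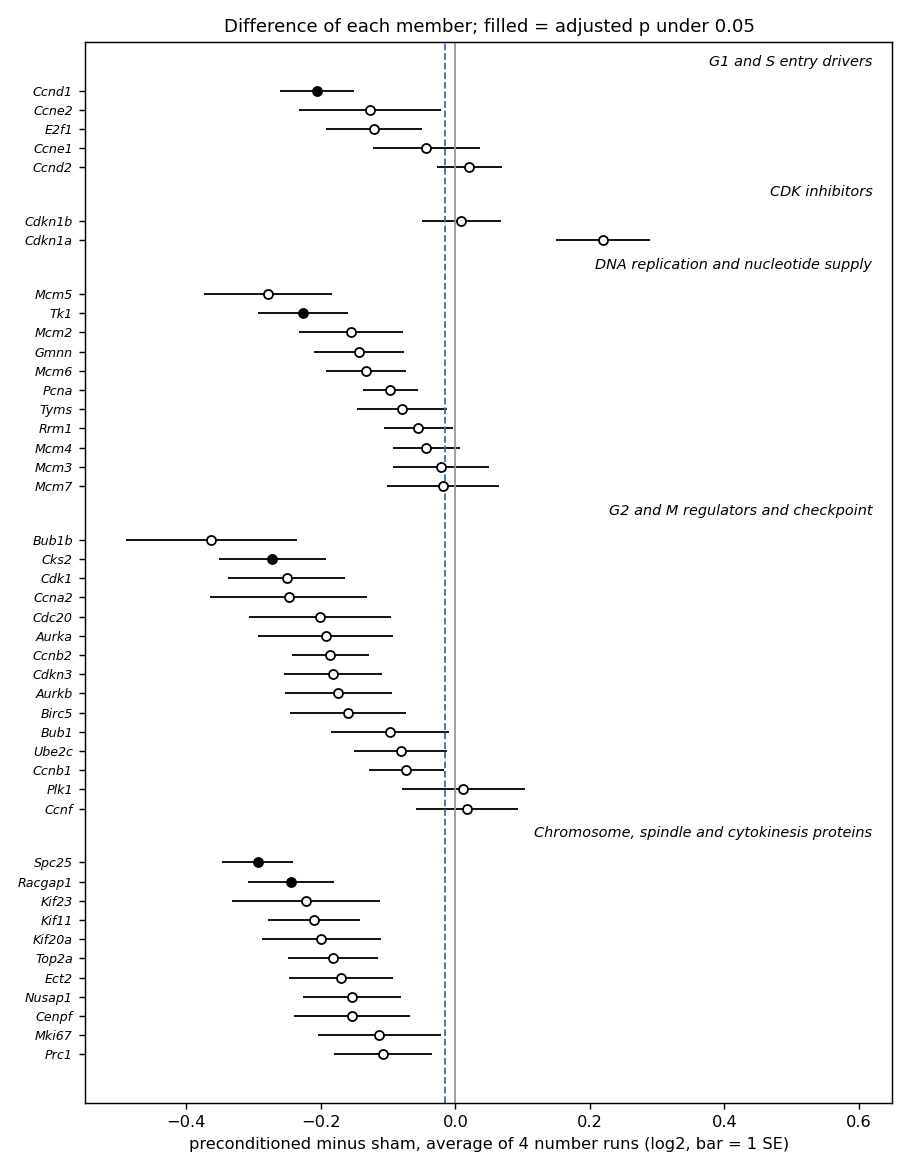
Difference of each kept member, preconditioned minus sham (x axis, log2, average of 4 number runs, n = 20 per group), with bars of 1 SE and members ordered within 5 roles (y axis). The dashed line marks the median of all probe sets at -0.02, and the filled points are the 5 called members, all left of it.

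Of the 47 members, 35 matched a promoter of RefSeq by gene ID (build GRCr8), and the 150 bases before the annotated start were searched on both strands for 3 motifs of cell cycle promoters. These were the CHR element (TTTGAA or TTCGAA), the CCAAT box (CCAAT) and the E2F site (TTTGGCGC, TTTCCCGC, TTTCGCGC or TTTGCCGC). Of the members called in the group comparisons, 4 are shown, Mcm6 (chr13:42404353-42404502, minus strand), Tk1 (chr10:103544778-103544927, minus strand), Cks2 (chr17:13727520-13727669, minus strand) and Spc25 (chr3:74396719-74396868, minus strand), and Cdkn1a (chr20:7150782-7150931, plus strand) is shown as the member with the highest difference. These promoters are of members whose values the results turn on, and they are written 5′ to 3′ in the direction of the gene, with motif matches in capitals.
Mcm6: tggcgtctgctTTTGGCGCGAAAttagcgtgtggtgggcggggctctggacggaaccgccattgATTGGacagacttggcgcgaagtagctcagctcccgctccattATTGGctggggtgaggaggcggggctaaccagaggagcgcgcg
Tk1: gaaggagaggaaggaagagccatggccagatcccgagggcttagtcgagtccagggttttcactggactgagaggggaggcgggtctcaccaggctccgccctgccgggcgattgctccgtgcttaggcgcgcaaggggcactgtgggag
Cks2: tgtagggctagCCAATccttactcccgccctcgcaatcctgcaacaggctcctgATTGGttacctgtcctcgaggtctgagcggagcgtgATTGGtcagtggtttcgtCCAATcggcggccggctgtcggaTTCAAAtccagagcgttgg
Spc25: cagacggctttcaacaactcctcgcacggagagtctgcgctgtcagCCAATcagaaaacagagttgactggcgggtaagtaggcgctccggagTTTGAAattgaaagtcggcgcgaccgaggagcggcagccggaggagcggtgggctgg
Cdkn1a: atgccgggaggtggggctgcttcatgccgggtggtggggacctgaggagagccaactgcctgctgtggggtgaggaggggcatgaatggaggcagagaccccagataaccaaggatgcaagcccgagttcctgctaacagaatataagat
In the Cks2 window, 4 CCAAT boxes lay before a CHR match that starts at position -19 from the gene's start, and in Spc25 a single CCAAT box starts at -104 and a CHR match at -57. Mcm6 held a pair of overlapping E2F matches and 2 CCAAT boxes but no CHR letters. None of the 3 motifs was found in the Tk1 and Cdkn1a windows.

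Over the member promoters, 13 of 35 (37.1%) held the CHR letters, against 9.79% of 27457 rat promoters and 5.72% of those of 8612 genes with a kept probe set. CCAAT was found in 23 of 35 (65.7%), against 23.7% of all promoters and 26.3% of those of genes with a kept probe set. An E2F motif was found in 6 of 35 (17.1%), against 1.25% and 2.31% of these promoters. The CHR matches were in Rrm1 among the replication genes and otherwise in 12 members of the 2 mitotic roles, including Cdk1, Ccnb2, Cks2, Spc25, Mki67 and Top2a. The E2F matches were in Mcm2, Mcm5, Mcm6, Mcm7, Tyms and Cdk1. These are matches of letters and not measured binding.

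Among the G1 and S entry drivers, Ccnd1 carried the clearest single difference. In numbers 1 to 5 it had log2 intensities of 6.89, 7.13, 7.13, 6.94 and 6.80 in preconditioned arrays, against 7.58, 7.61, 7.56, 7.54 and 7.25 in sham arrays. The 5 preconditioned arrays all lay below the lowest sham array, and the difference was -0.53 ± 0.11 (SE, n = 5 per group, limma adjusted p = 0.00346), a ratio of 0.693. In numbers 6 to 10 it averaged 7.08 ± 0.13 in preconditioned and 7.30 ± 0.25 in sham arrays (SD, n = 5 each), with a difference of -0.22 ± 0.11 (limma adjusted p = 0.29). In numbers 11 to 15 the difference was 0.02 and in 16 to 20 it was -0.09, and the test of a difference between runs gave a limma adjusted p of 0.196. The average over runs was -0.20 ± 0.05 (limma adjusted p = 0.0253), lower in 16 of 20 numbers. The other 2 probe sets of Ccnd1 differed by -0.21 and -0.19 on average, with limma adjusted p of 0.2 and 0.0927.

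The other drivers were not called in any run. Ccnd2, a further D cyclin, differed by 0.02 on average, and the E cyclins Ccne1 and Ccne2, which act at the start of S phase, by -0.04 ± 0.08 and -0.13 ± 0.10 (limma adjusted p = 0.815 and 0.539). Ccne2 values scattered widely in numbers 1 to 5, where preconditioned arrays ranged from 5.29 to 6.70 and sham arrays from 6.04 to 6.58. E2f1, the activator of replication genes, averaged 6.47 ± 0.24 in preconditioned and 6.60 ± 0.20 in sham arrays (SD, n = 20 each), a difference of -0.12 ± 0.07 (limma adjusted p = 0.356).

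Of the CDK inhibitors, Cdkn1a (p21) lay on the other side of 0 from most members in the first 10 numbers, without passing the test. In numbers 1 to 5 it had 6.46, 6.77, 6.62, 6.57 and 6.69 in preconditioned arrays, against 6.24, 5.94, 6.59, 5.82 and 6.14 in sham arrays. Only sham array 3 reached into the preconditioned range, and the difference was 0.47 ± 0.14 (limma adjusted p = 0.0577). In numbers 6 to 10 the difference was 0.42 ± 0.14 (limma adjusted p = 0.0987), in 11 to 15 it was 0.04 and in 16 to 20 it was -0.05. The average of 0.22 ± 0.07 had a limma adjusted p of 0.0651 and so lay close to the threshold. It was called higher after quantile normalization, after median centring, and in the fits that lacked sham array 3, 6 or 19 or preconditioned array 7, 14 or 20. Cdkn1b (p27), an inhibitor that keeps cells out of the cycle, differed by 0.01 ± 0.06. Its other probe set differed by 0.35 ± 0.11 (limma adjusted p = 0.0545), so the 2 probe sets disagreed in size.

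Among the 11 kept genes of replication and nucleotide supply, all 11 had an average below 0, and 1, Tk1, passed the test. Tk1 ranged from 5.29 to 6.46 with a median of 6.00 in preconditioned arrays, against 5.72 to 6.46 with a median of 6.24 in sham arrays. The ranges overlapped widely, but the preconditioned array was the lower one in 17 of 20 numbers, and the average difference was -0.23 ± 0.07 (limma adjusted p = 0.0448), a ratio of 0.855. Another kept probe set of Tk1 differed by -0.22 ± 0.16 and was not called (limma adjusted p = 0.4855). The call of the first probe set was lost in 27 of the 40 fits that each lacked 1 array, and limma's adjusted p was highest, 0.0746, without preconditioned array 17.

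Mcm6, a subunit of the helicase that unwinds DNA at replication forks, fell in numbers 1 to 5. Its values were 7.31, 7.17, 7.23, 6.98 and 6.79 in preconditioned arrays, against 7.41, 7.59, 7.49, 7.55 and 7.72 in sham arrays, with no overlap. The difference was -0.46 ± 0.12 (limma adjusted p = 0.0283), or a ratio of 0.729, and it was -0.15 in numbers 6 to 10, 0.12 in 11 to 15 and -0.05 in 16 to 20. The call was lost without preconditioned array 4 or 5 or sham array 2, 4 or 5, and limma's adjusted p was highest, 0.125, without preconditioned array 5.

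The other helicase subunits did not pass the test. Mcm5 had the largest average among them, -0.28 ± 0.10 (limma adjusted p = 0.084), followed by Mcm2 at -0.15 ± 0.08 (0.263), while Mcm4, Mcm3 and Mcm7 lay at -0.04, -0.02 and -0.02. Gmnn (geminin), which stops a second round of replication, differed by -0.39 ± 0.13 in numbers 1 to 5 and by -0.46 ± 0.13 in 6 to 10 (limma adjusted p = 0.111 and 0.0572), but by 0.10 and 0.17 in the later 2 runs. The test of a difference between runs gave it the smallest p of all members, a limma adjusted p of 0.114. Pcna, the sliding clamp of DNA polymerases, varied little, with 9.87 ± 0.15 in preconditioned and 9.97 ± 0.12 in sham arrays (SD, n = 20 each), a difference of -0.10 ± 0.04 (limma adjusted p = 0.181). Tyms and Rrm1, which make nucleotides, differed by -0.08 and -0.06.

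**Figure D2:**
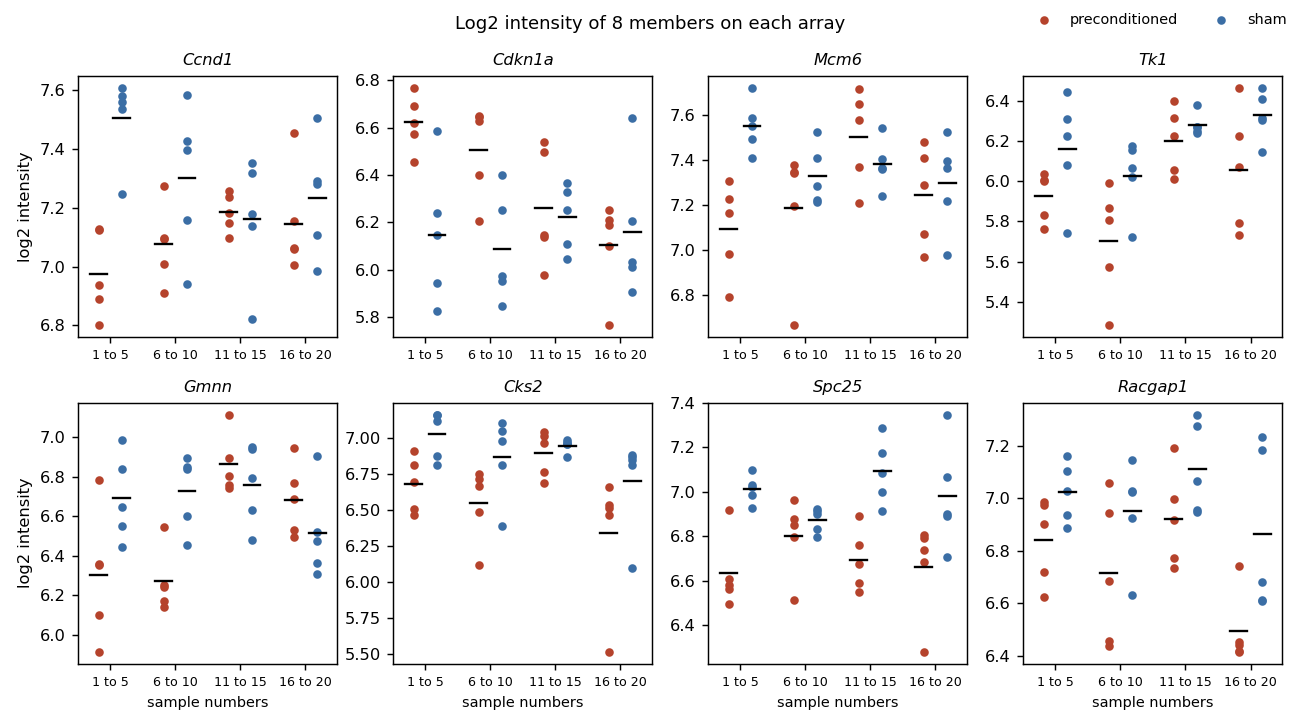
Log2 intensity (y axis) of 8 members on each array by sample numbers (x axis), 5 preconditioned arrays left and 5 sham arrays right in each run, with black lines at the means. In numbers 1 to 5 the preconditioned arrays of Ccnd1, Mcm6 and Spc25 lie below all sham arrays, while Cdkn1a lies higher in the first 2 runs without passing the test.

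Of the 15 kept regulators of G2 and mitosis, 13 lay below 0 on average and 1, Cks2, passed the test. Cks2 ranged from 5.52 to 7.05 with a median of 6.68 in preconditioned arrays, against 6.10 to 7.16 with a median of 6.92 in sham arrays. It was lower in the preconditioned array in 18 of 20 numbers, by -0.27 ± 0.08 on average (limma adjusted p = 0.0443). Array 17 was the lowest of both groups, at 5.52 in the preconditioned and 6.10 in the sham array. In 21 of the 40 fits that each lacked 1 array the call was lost, with the highest limma adjusted p, 0.0708, in the fit lacking preconditioned array 6.

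Cdk1, the kinase that drives entry into mitosis, averaged 6.54 ± 0.37 in preconditioned and 6.79 ± 0.26 in sham arrays (SD, n = 20 each). Its difference of -0.25 ± 0.09 was lower in 17 of 20 numbers but did not pass the test (limma adjusted p = 0.0881). Its partners Ccnb1 and Ccnb2 differed by -0.07 ± 0.06 and -0.19 ± 0.06 (limma adjusted p = 0.503 and 0.0521), and in Ccnb2 numbers 16 to 20 stood out. There it had 6.52, 5.95, 6.29, 6.32 and 6.25 in preconditioned arrays, against 6.91, 6.44, 6.93, 6.89 and 6.48 in sham arrays. Only preconditioned array 16 reached into the sham range, and the difference of -0.46 ± 0.11 had a limma adjusted p of 0.475 in a run in which 0 probe sets were called. Bub1b, a kinase-like protein of the spindle checkpoint, had the largest average of all members, -0.36 ± 0.13, and also the largest SE but was not called (limma adjusted p = 0.0901). It held the value at the floor, in sham array 6. Cdc20, which activates the anaphase-promoting complex, differed by -0.57 in numbers 6 to 10 and by 0.28 in 11 to 15, neither past the threshold, and preconditioned array 6 had 4.35, against 5.61 or more in the other 4 arrays of its run. The other kept probe set of Cdc20 lay at 0.10 in 6 to 10 and 0.22 in 11 to 15, so the sign in 6 to 10 differed between the kept probe sets. Of the rest, Ccna2, Aurka, Cdkn3, Aurkb and Birc5 lay between -0.25 and -0.16, Bub1 and Ube2c at -0.10 and -0.08, and Plk1 and Ccnf at 0.01 and 0.02.

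All 11 kept proteins of chromosomes, the spindle and cytokinesis had an average below 0, from -0.29 to -0.11, and 2 passed the test. Spc25, a subunit of the NDC80 complex that holds chromosomes to microtubules, had the smallest adjusted p of all members. It ranged from 6.28 to 6.96 with a median of 6.71 in preconditioned arrays, against 6.71 to 7.35 with a median of 6.96 in sham arrays, and 10 of the 20 preconditioned arrays lay below every sham array. The average difference was -0.29 ± 0.05 (limma adjusted p = 0.000479), a ratio of 0.815, lower in 19 of 20 numbers.

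By run, Spc25 had 6.92, 6.58, 6.61, 6.56 and 6.50 in preconditioned arrays 1 to 5, against 7.03, 7.10, 6.93, 6.99 and 7.02 in sham arrays, a difference of -0.38 ± 0.11 (limma adjusted p = 0.0415). In numbers 11 to 15 it had 6.55, 6.59, 6.76, 6.67 and 6.89 in preconditioned arrays, against 7.00, 7.09, 7.18, 7.29 and 6.92 in sham arrays. The groups did not overlap in either of these runs, yet the second difference, -0.40 ± 0.11, had a limma adjusted p of 0.158. In numbers 6 to 10 the difference was -0.07 and in 16 to 20 it was -0.32. The call in numbers 1 to 5 was lost in 9 of the 40 fits that each lacked 1 array (highest limma adjusted p 0.123, without preconditioned array 5), and that of the average in 0 of 40 (highest 0.00105).

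Racgap1 ranged from 6.42 to 7.19 with a median of 6.74 in preconditioned arrays, against 6.61 to 7.32 with a median of 7.03 in sham arrays. Its differences were -0.18, -0.23, -0.19 and -0.37 from the first to the last run, and the average of -0.24 ± 0.06 (limma adjusted p = 0.0219) was lower in 16 of 20 numbers. Its other probe set differed by -0.20 (limma adjusted p = 0.249). The widely used proliferation markers Mki67 and Top2a were not called. Mki67 averaged 6.68 ± 0.39 in preconditioned and 6.79 ± 0.31 in sham arrays (SD, n = 20 each), a difference of -0.11 ± 0.09 (limma adjusted p = 0.528). Top2a, which untangles DNA before division, averaged 6.73 ± 0.24 and 6.91 ± 0.24 in preconditioned and sham arrays, a difference of -0.18 ± 0.07 (limma adjusted p = 0.114).

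The motor proteins Kif11, Kif20a and Kif23 differed by -0.21 ± 0.07, -0.20 ± 0.09 and -0.22 ± 0.11 (limma adjusted p = 0.0673, 0.205 and 0.259). Kif11, which separates the spindle poles, had 6.12, 6.10, 5.88, 5.95 and 5.93 in preconditioned arrays 1 to 5, against 6.21, 6.23, 6.38, 6.21 and 6.34 in sham arrays. The groups did not overlap there, but the difference of -0.28 ± 0.14 did not pass the test (limma adjusted p = 0.291). Ect2, the exchange factor that starts furrow ingression with Racgap1, differed by -0.17 ± 0.08 and Nusap1, which binds spindle microtubules, by -0.15 ± 0.07 (limma adjusted p = 0.216 and 0.24). Cenpf of the kinetochore and Prc1 of the spindle midzone differed by -0.15 and -0.11.

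By run, 3 kept members were called lower in numbers 1 to 5 (Ccnd1, Mcm6 and Spc25) and 0 higher, where 1.15% of all probe sets were called lower and 1.23% higher. In 6 to 10, 0 members were called, where 1.12% of all probe sets were lower and 1.1% higher. In 11 to 15 and 16 to 20, 0 members were called, where 0.0698% and 0% of all probe sets were called in either direction. At an unadjusted p under 0.05, limma gave 12 members in the first run, 9 in the second, 2 in the third and 14 in the last, of which 11, 8, 2 and 14 were lower. Among all probe sets the shares at that level were 16.64%, 16.79%, 9.85% and 5.11%. After median centring, Cdkn1a was called higher in both of the first 2 runs and Spc25 lost its call in 1 to 5. All called probe sets then split into 85 lower and 347 higher in 1 to 5 and 81 lower and 409 higher in 6 to 10. Quantile normalization likewise called Cdkn1a higher and lost Spc25 in 1 to 5, with 149 probe sets lower and 262 higher. With each run fitted alone, Ccnd1 and Mcm6 were the members called in 1 to 5.

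**Figure D3:**
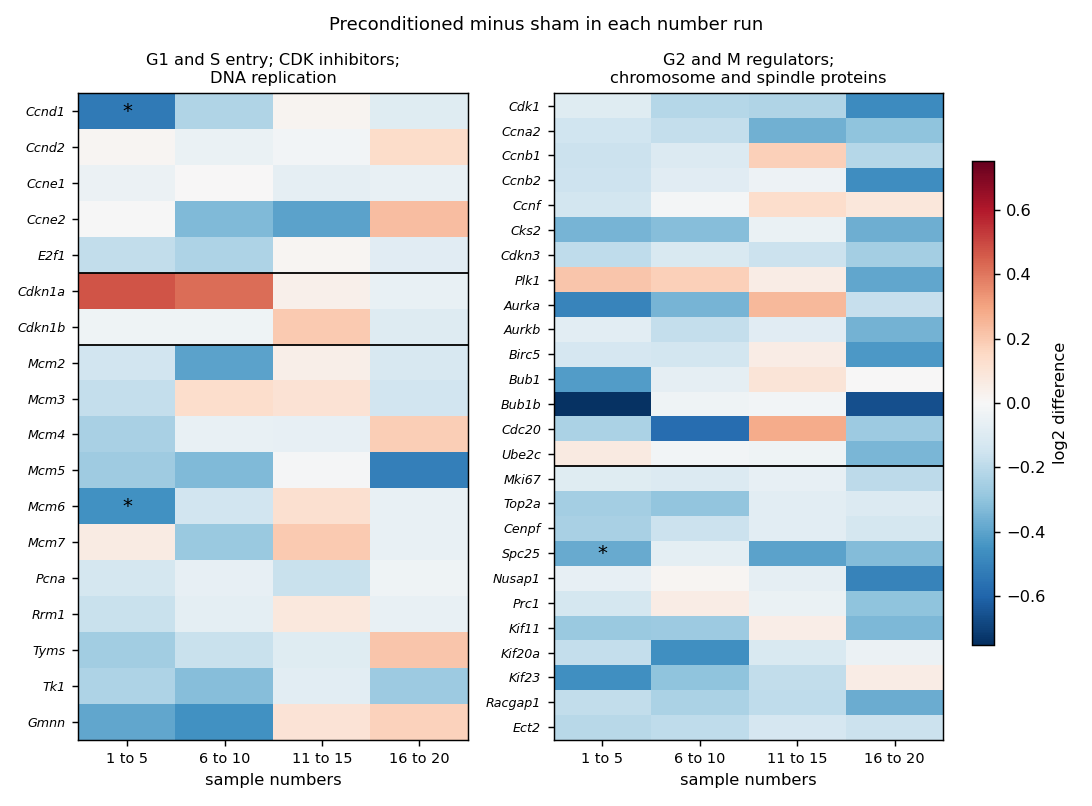
Preconditioned minus sham (colour, log2) of each kept member (rows, by role) in the 4 number runs (columns, 5 arrays per group each), with an asterisk at a limma adjusted p under 0.05. The 3 asterisks are in numbers 1 to 5, and in each of the first 2 columns 39 of 44 members lie below 0.

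Members whose 5 preconditioned arrays all lay below all 5 sham arrays numbered 4 in 1 to 5 (Ccnd1, Mcm6, Spc25 and Kif11), where 2.28% of all probe sets did so. In 6 to 10 there were 0 (2.01% of all), in 11 to 15 there was 1, Spc25 (1.06%), and in 16 to 20 there were 0 (0.51%). The median difference of the kept members was -0.18, -0.15, -0.04 and -0.15 from the first to the last run, against -0.03, -0.02, 0.00 and 0.00 over all probe sets. Below 0 lay 39, 39, 26 and 36 of the 44 members. In 6 to 10 the median was -0.08 with 32 members below 0 without preconditioned array 6, -0.23 without sham array 6, and -0.08 with 29 members below 0 after median centring. In 1 to 5 median centring gave -0.11 with 35 below 0. In 11 to 15 the median lay between -0.06 and 0.00 with single arrays left out, nearest to 0 without preconditioned array 12, and in 16 to 20 it was -0.10 without preconditioned array 17. In numbers 11 to 15 the roles differed in their medians, with 0.04 for replication genes, -0.02 for G2 and M regulators and -0.08 for chromosome and spindle proteins. In 16 to 20 the G2 and M regulators had the lowest median, -0.34, while replication genes were at -0.06. For 0 of the 44 members did limma call a difference of the effect between runs (0.762% of all probe sets), with 6 members (and 12.89% of all probe sets) at an unadjusted p under 0.05, so no run was shown to differ from another.

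Read number by number, the mean log2 level of the 44 members was lower in the preconditioned array than in the sham array of the same number in 19 of 20 numbers. The differences ran from -0.21 to -0.15 in 1 to 5, from -0.22 to -0.07 in 6 to 10, from -0.06 to 0.02 in 11 to 15 and from -0.28 to -0.11 in 16 to 20, and number 11 was the exception. In each number, 23 to 34 of the 44 members (52.3% to 77.3%) were lower in the preconditioned array, and 47.4% to 60% of all kept probe sets. In number 6 the members had the smaller share, 54.5% against 60%. Array medians in numbers 5 and 6 were 5.59 and 5.53 in preconditioned arrays, against 5.82 and 5.79 in sham arrays. The mean levels of the members were not adjusted for these medians. Low arrays tended to share a number, since number 6 had means of 6.19 in the preconditioned and 6.36 in the sham array, and number 17 had 6.12 and 6.30. The chromosome and spindle proteins were lower in all 20 numbers as a mean, the G2 and M regulators in 17, the replication genes in 16, the G1 and S entry drivers in 15 and the CDK inhibitors in 6. The G1 and S entry drivers were lower in 1 of the 5 numbers of 16 to 20. Since the members were listed with results of these arrays known, these counts describe them and carry no test.

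**Figure D4:**
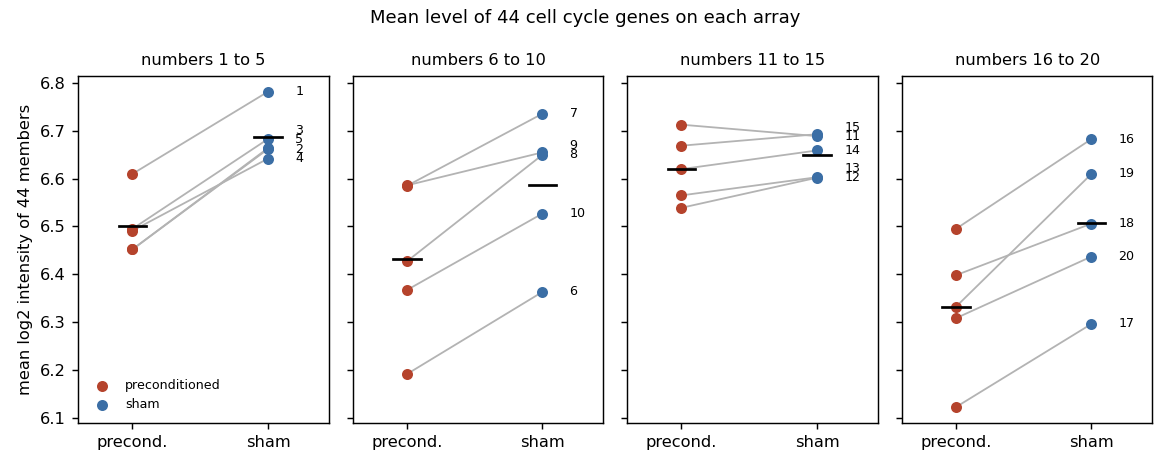
Mean log2 intensity of the 44 kept members (y axis) on each array, preconditioned left and sham right, for the 4 number runs, with lines that join arrays of the same number and black bars at the means of 5 arrays. Of 20 lines, 19 rise toward the sham array, and the gap is narrowest in numbers 11 to 15, where the means were 6.62 and 6.65.

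Where the fit held the sample number as a block, 8 members were called lower on average and 0 higher, where 2.68% of all probe sets were called lower. These were Ccnd1, Tk1, Cks2, Spc25 and Racgap1, already called without it, and Cdk1 (limma adjusted p = 0.00289), Ccnb2 (0.0193) and Kif11 (0.0395). The labels do not say that a shared number marks a shared litter, day or animal. Deviations of same-numbered arrays correlated by over 0.1 in 15 of 20 numbers. Each array was also compared with the 5 arrays of the other group in its run. The best match had the same number for 19 of 20 preconditioned and 17 of 20 sham arrays, and both ways in 17 of 20 numbers. That is a hint of pairing from the data and not from the design, so these calls are given beside the unpaired ones and not in their place. Without preconditioned arrays 5 and 6, which had the lowest array medians, the unpaired average kept Ccnd1, Spc25 and Racgap1, and numbers 1 to 5 kept Ccnd1 alone. In a fit of 2 group means that leaves the run out, Spc25 was the 1 member called.

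Levels were also compared between the runs within a group. In preconditioned arrays limma called a difference in level between runs for 12 of 44 members, where 22.8% of all probe sets were called, so this count is near the background. In sham arrays it called 2 of 44, Mcm4 and Kif20a, where 13.7% of all probe sets were called. Of the 12, 8 had their lowest mean in numbers 16 to 20 and 10 their highest in 11 to 15. The same was not counted over all called probe sets, so this describes the 12 alone. A call in 1 group without a call in the other does not show that the groups differ. The test of a difference of the effect between runs called 0 of the 44 members (limma adjusted p = 0.388 for Ccnb2 and 0.579 for Kif11). Ccnb2 averaged 6.69, 6.62, 6.83 and 6.27 in the 4 preconditioned runs in order (limma adjusted p = 0.00231), while its sham means were 6.85, 6.71, 6.87 and 6.73 (0.598). Kif11 averaged 6.00, 5.76, 6.17 and 5.51 in preconditioned runs (0.0022) and 6.27, 6.03, 6.12 and 5.85 in sham runs (0.11).

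Cdkn1a averaged 6.62, 6.50, 6.26 and 6.10 in the preconditioned runs (limma adjusted p = 0.0197), against sham means of 6.15, 6.08, 6.22 and 6.16 (0.891). Gmnn had the smallest adjusted p among the preconditioned arrays, 0.00161, with means of 6.30, 6.27, 6.86 and 6.68, against 6.69, 6.73, 6.76 and 6.51 in sham runs (0.477). Ccnb1 averaged 6.88, 6.82, 7.13 and 6.60 in preconditioned runs (0.00496) and 7.04, 6.92, 6.95 and 6.81 in sham runs (0.448). Nusap1 averaged 6.62, 6.50, 6.62 and 6.10 in preconditioned runs (0.0183) and 6.68, 6.49, 6.69 and 6.60 in sham runs (0.658). Its difference between the groups in the last run was -0.50, but 0.19 in its other kept probe set, so the signs differed there. The mean levels of these probe sets were 6.54 and 6.53, and their average differences were -0.15 and -0.06. The other 6 members called in preconditioned arrays were Mcm6, Tk1, Cks2, Bub1b, Cdc20 and Racgap1, with limma adjusted p from 0.0291 to 0.0469. The calls of Gmnn, Ccnb1, Ccnb2 and Kif11 were lost in 0 of the 40 fits that each lacked 1 array, and those of Cks2, Racgap1 and Mcm6 in 21, 17 and 14 of them. In sham arrays, Mcm4 averaged 7.51, 7.26, 7.32 and 7.02 (limma adjusted p = 0.00628) and Kif20a 5.71, 5.84, 5.61 and 5.19 (0.0399), while their preconditioned means gave 0.91 and 0.256. The Kif20a call was lost in 10 of the 40 fits, with the highest p, 0.17, without sham array 17. Ccnd1, Ect2 and Kif11 followed with limma adjusted p of 0.0994, 0.102 and 0.11.

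Further genes of the same processes were read from 3 lists. Of 17 kept regulators of G1 and S outside the members, 3 fell on average and 0 rose, where 1.93% of all probe sets were called lower. These were E2f5, an E2F factor that acts with pocket proteins (-0.16 ± 0.03, limma adjusted p = 0.00278), Tfdp1, the partner of E2F factors (-0.13 ± 0.03, 0.0164), and Cdc25a, a phosphatase that activates cyclin-dependent kinases (-0.31 ± 0.08, 0.0268). Of 30 kept replication genes 1 fell on average, the DNA ligase Lig1 (-0.22 ± 0.06, limma adjusted p = 0.0236), and of 31 kept mitosis genes 1, the kinesin Kif22 (-0.24 ± 0.07, 0.0419). The called shares of these 2 lists are near the background.

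In numbers 1 to 5, E2f5 and the polymerase subunit Pold2 fell by 0.34 and 0.30, and in 6 to 10 the kinetochore protein Cenpn and the condensin subunit Smc2 fell by 0.65 and 0.47. The medians of these lists on average were -0.08, -0.11 and -0.10, and 13 of 17, 28 of 30 and 28 of 31 genes lay below 0, against 57.2% of all probe sets. Of 10 kept p53 targets and growth arrest genes, 0 were called on average, and Gadd45g, which acts in growth arrest, rose in numbers 1 to 5 by 0.81 ± 0.17 (limma adjusted p = 0.00527). Their median was 0.03.

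Markers of cell types that divide or could be sampled to unequal extents were read beside these counts, and their part in the differences was not tested. Of 12 kept markers of neural progenitors and neuroblasts, Vim rose on average (0.14) and 0 fell, and their summed intensity ranged from 11554 to 18592 in preconditioned and from 11771 to 16618 in sham arrays. Eomes and Neurog2 of that list were below the filter, and Hes5 fell in numbers 6 to 10 (-0.74). Of 9 markers of oligodendrocyte precursors, Pdgfra rose (0.22) and 0 fell, with sums from 2164 to 2873 in preconditioned and from 2043 to 2813 in sham arrays. The average differences of these lists had medians of 0.02 and -0.02.

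Of 9 endothelial markers, Flt1 (0.41), Kdr (0.24) and Vwf (0.49) rose on average and 0 fell, with sums from 1439 to 1867 in preconditioned and from 1369 to 1602 in sham arrays. By run, Pecam1 rose in numbers 1 to 5 (0.53) and Tek fell in 6 to 10 (-0.51). Of 9 microglial and macrophage markers Mrc1 rose (0.37) and 0 fell, and of 9 astrocyte markers Gfap (0.66) and Aldoc (0.26) rose and 0 fell. Most markers of these 2 lists lay on the other side, with 5 of 9 below 0 on average in each. The average differences had medians of -0.03 for microglia, -0.06 for astrocytes and 0.10 for the endothelial list. The sums were 650 to 1308 in preconditioned and 572 to 1188 in sham arrays for microglia, and 7830 to 14309 in preconditioned and 7557 to 11091 in sham arrays for astrocytes. The microglial markers Itgam, Cd68 and Trem2 were below the filter. None of the kept markers of myelinating oligodendrocytes, mural cells, meninges, cortical neurons, striatum, hippocampus and thalamus, choroid plexus and ependyma, or red blood cells was called on average by limma, and Prox1 of the hippocampus and thalamus list rose in numbers 1 to 5 (0.33). The choroid plexus sum ranged from 3056 to 6507 in preconditioned and from 145 to 6714 in sham arrays, with the 145 in sham array 9.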

How the data were processed

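The deposited table holds 1 linear probe set intensity value per probe set and array. The sources used here do not name the software behind it. The mean intensity of each array, without the lowest and highest 2% of probe sets, was 150.04 to 150.06 as deposited, a common mean to which the authors had thus scaled the arrays. The table held 31099 probe sets, of which 57 control probe sets were left out. From the deposited intensities, values under 16 were set to 16 and log2 was taken, with no further normalization. Probe sets with a mean log2 at or above the 40th percentile were kept (18625 of 31042). Gene names came from the platform annotation, in which 20826 probe sets had 1 gene, 436 several and 9780 none. No pair of arrays held identical values.

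One limma fit (version 3.58.1, R 4.3.3, eBayes with its trend option) of 8 group means, 2 groups in 4 number runs, gave the difference in each run, their average, the test of a difference between runs, and the level between runs within each group. Tests were two-sided, with Benjamini-Hochberg adjustment over all kept probe sets and a threshold of 0.05. The fit was tested on simulated data. Members, roles and lists were chosen with earlier results of these data known. Values are given in most detail for members called in any comparison, for the 3 largest averages in each role, the 5 smallest p of the sham test, and Ccnd1, Cdkn1a, Cdkn1b, Mki67, Top2a and Pcna. Called genes of the other pathway lists are named, at most 5 per list and comparison, and of the marker lists those called on average and some called in single runs. Alternatives were other normalizations, floors, filters and fits, the sample number as a block, other probe sets, and leaving out arrays.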

Additional observations from a re-analysis of the deposited data

Results flagged for a closer look

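Within groups of 5 arrays, an array was marked where its gap to the nearest other array exceeded 0.71 of the whole range (Dixon's 95% value). Of 224 groups checked, over 27 named members and the mean of the kept members, 23 were marked, where chance gives about 1 in 20, or 11.2.

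Several marks fell on the same arrays. Preconditioned array 17 was low for Cks2 (5.52, next 6.47), Mki67 (5.56, next 6.36) and Spc25 (6.28, next 6.68), and sham array 17 was low for Cks2 (6.10, next 6.82). Preconditioned array 6 was low for Mcm6 (6.67), Cdc20 (4.35, next 5.61) and Kif11 (5.17, next 5.80), and sham array 6 was low for Pcna (9.84), Cdk1 (6.05, next 6.93) and Kif11 (5.81, next 6.06). Preconditioned array 1 was high for Spc25 (6.92, next 6.61), for Kif23 (6.05, next 5.47) and for the mean of the kept members (6.61, next 6.49), and low for Nusap1 (6.39).

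The remaining marks were single arrays. Sham array 5 was low for Ccnd1 (7.25, next 7.54), sham array 13 for Mcm5 (4.67), preconditioned array 12 for Pcna (9.49) and Mki67 (6.47), and sham array 14 for Cks2 (6.87). High values were sham array 14 for Tk1 (6.38), preconditioned array 9 for Gmnn (6.55), preconditioned array 11 for Cdc20 (6.92) and preconditioned array 16 for Racgap1 (6.74).

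No member passed the test of a difference between runs, but 3 endothelial markers did. Flt1 differed by 1.16, 0.80, -0.06 and -0.26 from the first to the last run (limma adjusted p = 0.028), Kdr by 0.40, 0.53, -0.05 and 0.07 (0.00946), and Tek by -0.32, -0.51, 0.22 and -0.07 (0.0325).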

How the results depend on the processing

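The median difference of the kept members stayed below 0 in every run and on average under all alternatives run, and 0 members were called in numbers 11 to 15 and 16 to 20 under any of them. In numbers 1 to 5 the count of 3 was 1 without the filter, without preconditioned arrays 5 and 6, and with those left out and a block. It was 2 with each run fitted alone, where Spc25 was lost. After quantile normalization or median centring it stayed at 3, but with Cdkn1a (higher) in place of Spc25. Single arrays left out gave 1 to 4, with 1 (Ccnd1) without preconditioned array 4 or 5 or sham array 2, 4 or 5. In 6 to 10 the count of 0 became 1 after median centring (Cdkn1a, higher), 1 with a filter at the 60th percentile (Gmnn) and 2 with the block (Gmnn, Cks2), and 0 to 1 (Gmnn) with single arrays left out. For the average, the count of 5 was 2 after median centring (Spc25 lower, Cdkn1a higher), 3 without the filter, 3 without arrays 5 and 6, 1 in the fit without runs, and 3 to 9 with single arrays left out, highest without sham array 6 and lowest without preconditioned array 3, 5, 6, 11 or 17 or sham array 4, 7, 8, 9, 11, 12, 15, 16 or 18. Median centring also moved the split of all called probe sets on average to 685 higher and 117 lower, against 385 and 359. For the sham runs the count of 2 was 1 without the filter, 1 at the 60th percentile, 1 to 2 with single arrays left out, and 3 without preconditioned arrays 5 and 6 (Kif11 added). For the preconditioned runs the 12 became 7 without the filter, 9 after quantile normalization, 8 after median centring and 7 to 15 with single arrays left out, lowest without array 15. The effect differed between runs for 0 to 1 members with single arrays left out (Gmnn, without preconditioned array 3). The median difference with single arrays left out ran from -0.20 to -0.15 in 1 to 5, -0.23 to -0.08 in 6 to 10, -0.06 to 0.00 in 11 to 15, -0.22 to -0.10 in 16 to 20, and -0.17 to -0.13 on average. Under a fit with the sample number as a block, 8 members were called on average, 4 in numbers 1 to 5 and 2 in 6 to 10. Calls among all 18625 probe sets rose with the block too. They were 500 lower on average (359 without it), 538 in 1 to 5 (445) and 677 in 6 to 10 (413). With the block and without arrays 5 and 6, 12 members were called on average (11 lower, Cdkn1a higher), an alternative chosen after seeing the data. Deviations of same-numbered arrays correlated by 0.03 to 0.39, over 0.1 in 15 of 20 numbers, and 17 of 20 numbers matched best both ways, a hint from the data and not from the design. The cause of these changes was not tested.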
